A study of Mus musculus with 14 samples.

Results

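The genes examined were the 10 genes of the type 1 program of lymphocytes, namely the cytokine Ifng, the transcription factors Tbx21 (T-bet), Eomes and Stat4, the receptor chains for IL-12 (Il12rb1, Il12rb2) and IL-18 (Il18r1, Il18rap), and the receptor chains for IFNγ itself (Ifngr1, Ifngr2). They were chosen by name, and all 10 of 10 were present among the 53278 genes measured. The question was whether IL-33, and the loss of the repressor Blimp-1 (gene Prdm1), alter the upstream machinery of this program as well as its products. All libraries came from ILC2s sorted from whole lung of female mice as live, lineage-, CD90.2+, CD3- cells. The labels number each library by mouse and the design text describes individual mice, but legends of the study describe sorted samples as pools of 2 animals, so that a library may hold more than 1 animal. In the first experiment, B6 ILC2s were cultured for 24 h without IL-33 (Unstimulated, 4 libraries) or with IL-33 at 20 ng/mL (IL-33 stimulated, 4 libraries). The labels and methods give culture for the Unstimulated cells as well, whereas the study also calls them ex vivo, and if they were not cultured, the effects of IL-33 and of culture cannot be told apart. In the second, ILC2s from ControlIL7RaCre mice (Control, 3 libraries) and Blimp-1IL7RaCre mice (Blimp-1-deficient, 3 libraries) were cultured for 72 h with IL-33 at 20 ng/mL and IL-25 at 20 ng/mL, to which the methods of the study add IL-2. Both genotypes were thus alarmin-activated, and IL7RaCre deletes in all ILC subsets, T cells, B cells and NK cells.

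In type 1 lymphocytes, IL-12 signals through a receptor of Il12rb1 and Il12rb2 to STAT4, IL-18 signals through Il18r1 and its accessory chain Il18rap, and the 2 pathways together with T-bet and Eomes drive transcription of Ifng. IFNγ in turn acts on cells that carry Ifngr1 and Ifngr2, and induces chemokines and guanylate-binding proteins. ILC2s are governed by GATA3 and produce type 2 cytokines, and their acquisition of T-bet and IFNγ is known as ILC1-like plasticity. Blimp-1 is a transcriptional repressor of activated lymphocytes.

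Totals per library ranged from 10470125 to 76448945 counts. IL-33 stimulated replicate 3 held the fewest counts of all 14. Control replicate 2 stood apart, with 76.8% of its 13570188 counts on 7 genes and 3150795 counts outside them, so that 3 counts, the upper limit that a count of 0 allows, corresponded to 0.731 CPM in it (CPM, the count relative to the TMM-normalized size of its library) and to 0.0310 to 0.296 CPM in the other libraries. Member and list results are therefore given with and without these libraries. Prdm1 was at 75.2, 92.8 and 74.0 CPM in Control replicates 1 to 3 and at 14.6, 11.5 and 11.4 CPM in the Blimp-1-deficient ones, 6.43-fold lower (log2 fold change -2.68, SE 0.15, edgeR adjusted p = 0.00441), as the labels state. That call was lost in 8 of 15 alternatives, among them without any 1 of the Blimp-1-deficient libraries. All 12 ILC2 marker genes were above 3 counts in every library, with Gata3 at 491 to 1043 CPM, whereas 14 marker genes of ILC1s and NK cells summed to 32.1 to 63.8 CPM, with 2 to 9 of the 14 at or below 3 counts per library. In these bulk samples, fewer cells of a type and less RNA per cell cannot be told apart.

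The promoters of 4 members are shown first, 1 as an example of each motif searched. RefSeq promoter windows of 300 bases (250 before and 50 after the start, build GRCm38.p6) were found for 9 of the 10 members, with 12 start sites in all. Motifs searched on both strands were the Blimp-1 core AGNGAAAG (in 8.63% of the 32851 promoters of the same length), the T-box site AGGTGNGA (5.43%), the STAT-type GAS element TTCNNNGAA (8.3%) and, chosen after a promoter was seen, the related word AAGTGAAA (1.6%), and matches are in capitals. These words can share bases where they lie side by side.

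Stat4, second start, chr1:52007990-52008289, + strand, with AAGTGAAA at -95:
Stat4: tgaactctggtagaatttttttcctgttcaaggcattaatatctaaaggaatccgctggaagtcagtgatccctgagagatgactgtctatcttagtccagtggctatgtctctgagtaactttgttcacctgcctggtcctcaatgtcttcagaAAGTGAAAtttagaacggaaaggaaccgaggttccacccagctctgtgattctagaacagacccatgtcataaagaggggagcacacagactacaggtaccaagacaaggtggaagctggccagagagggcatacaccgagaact

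Tbx21, chr11:97115282-97115581, - strand, with AGAGAAAG at 22 after the start:
Tbx21: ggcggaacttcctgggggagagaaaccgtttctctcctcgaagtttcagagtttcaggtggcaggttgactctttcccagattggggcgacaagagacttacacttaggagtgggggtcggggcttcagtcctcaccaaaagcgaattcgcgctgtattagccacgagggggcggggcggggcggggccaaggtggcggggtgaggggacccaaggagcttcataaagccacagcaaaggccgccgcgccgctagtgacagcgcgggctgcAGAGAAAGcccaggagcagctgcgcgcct

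Ifng, chr10:118440796-118441095, + strand, with TTCAGAGAA from base 2 of the window:
Ifng: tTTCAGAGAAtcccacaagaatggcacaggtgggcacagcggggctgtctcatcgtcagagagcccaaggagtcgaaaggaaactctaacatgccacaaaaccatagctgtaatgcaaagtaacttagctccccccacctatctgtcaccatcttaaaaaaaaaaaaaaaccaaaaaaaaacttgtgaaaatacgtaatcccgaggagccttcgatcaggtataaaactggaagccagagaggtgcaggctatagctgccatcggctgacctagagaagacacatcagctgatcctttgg

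Ifngr1, chr10:19591699-19591998, + strand, with TCCCACCT (the T-box site on the other strand) at -171:
Ifngr1: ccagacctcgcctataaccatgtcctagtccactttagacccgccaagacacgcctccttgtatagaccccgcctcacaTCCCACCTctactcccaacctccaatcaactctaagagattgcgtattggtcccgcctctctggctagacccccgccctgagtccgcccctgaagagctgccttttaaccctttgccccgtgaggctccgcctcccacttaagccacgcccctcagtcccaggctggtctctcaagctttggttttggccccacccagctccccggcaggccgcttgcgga

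The loose word AGNGAAAG was in 1 of the 12 member windows (Tbx21, with A as its open base). The T-box site was in 1 (Ifngr1), the GAS element in 3 (Ifng, Il12rb2 and the third start of Il18r1) and AAGTGAAA in 1 (Stat4). None of the 4 words was in the windows of Eomes, Il18rap and Ifngr2, of the first Stat4 start or of the other Il18r1 starts. A match in a window of this length is a description only.

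**Figure D1:**
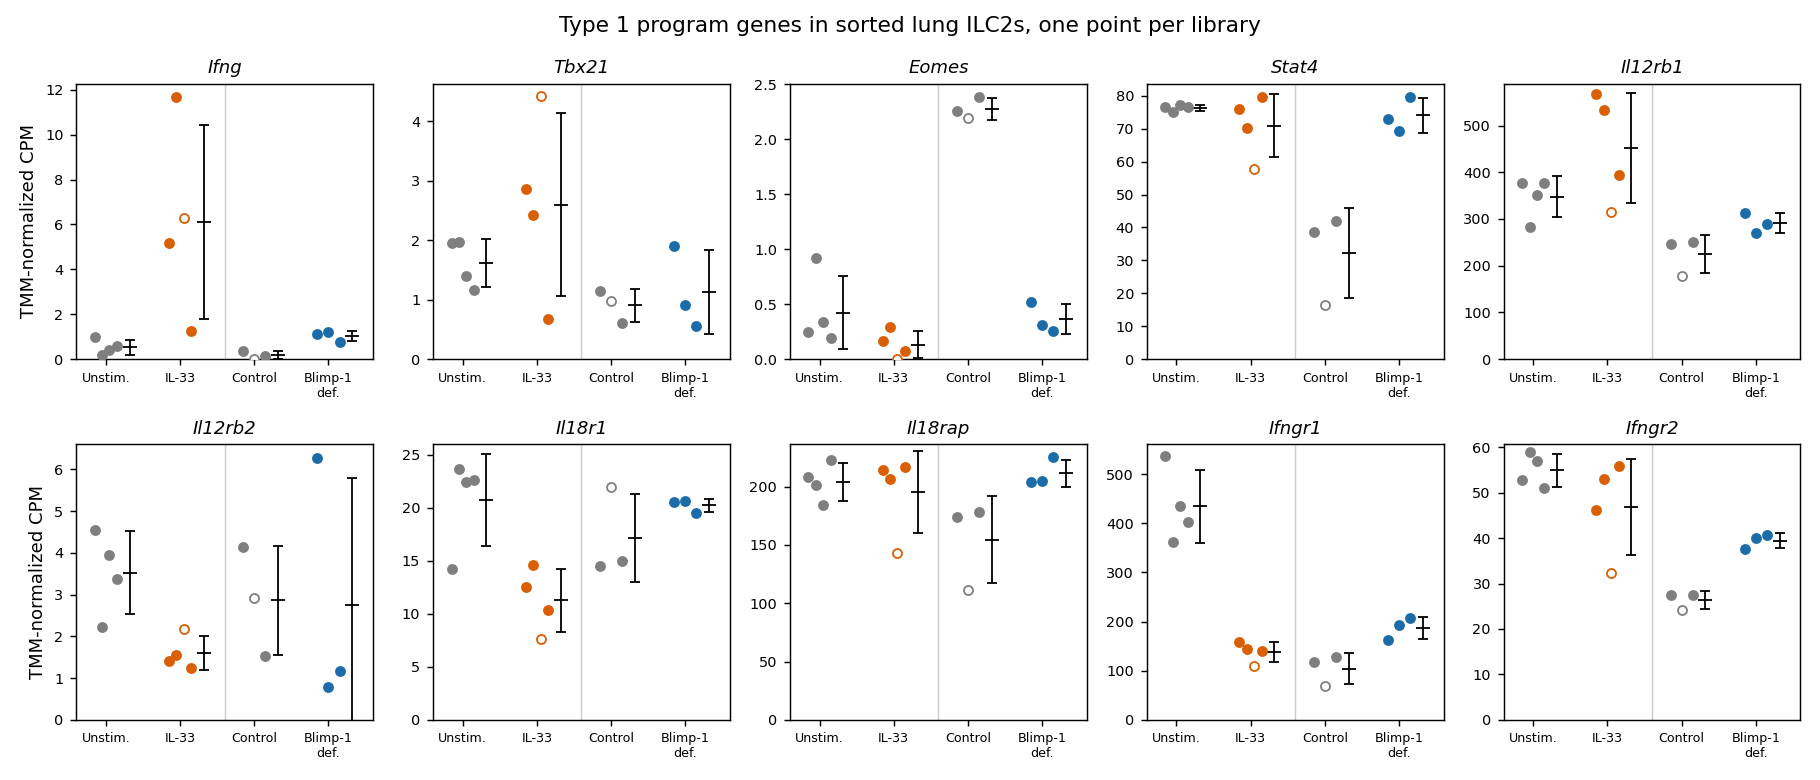
CPM after TMM normalization (linear axes from 0) of the 10 genes in each library, grouped as Unstimulated, IL-33 stimulated, Control and Blimp-1-deficient, with the mean and SD beside each group; open points are IL-33 stimulated replicate 3 and Control replicate 2, and the vertical line separates the experiments. Ifngr1 is lower and Ifng higher in all 4 IL-33 stimulated libraries, and Stat4 and the Ifngr chains are higher and Eomes is lower in all 3 Blimp-1-deficient libraries.

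The components of the program stood at very different levels, compared here per length as the TPM deposited by the authors. In Unstimulated ILC2s, Ifngr1 was the highest (527 ± 73.4 TPM, SD, n = 4), followed by Il12rb1 (293 ± 35.8), Il18rap (105 ± 9.16), Stat4 (68.3 ± 2.36), Ifngr2 (57.4 ± 4.65) and Il18r1 (14.96 ± 3.53), with no overlap between neighbours in this order. Il12rb2 (3.20 ± 0.828), Tbx21 (2.25 ± 0.517), Ifng (1.41 ± 0.837) and Eomes (0.353 ± 0.284) followed, and neighbours among these did overlap. Thus Il12rb2, Tbx21 and Eomes were low, while the shared chain Il12rb1, which is also part of the IL-23 receptor, was abundant. Il12rb1 was the highest in the other 3 groups, at 306 ± 93.5 TPM after IL-33 (n = 4), 231 ± 9.12 in Control (n = 2, without Control replicate 2, whose TPM are lowered by its 7 dominant genes) and 286 ± 36.9 in Blimp-1-deficient ILC2s (n = 3). In the last group the range of Il12rb1 overlapped that of Ifngr1 (264 ± 19.1 TPM). The levels of the 2 experiments were not tested against each other.

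The effect of 24 h of IL-33 was examined first. Ifng rose and Ifngr1, Il12rb2 and Il18r1 fell, so that the cytokine and 3 of the receptor chains moved in opposite directions, whereas Stat4, Il18rap, Ifngr2, Il12rb1 and Tbx21 did not pass the test with all 8 libraries. Of the 9 members tested, 1 was higher and 3 were lower, against 16.2% higher and 16.1% lower among all 15466 genes. Without IL-33 stimulated replicate 3, 2 were higher and 3 lower, against 27.5% and 29.7% of 15733 genes.

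Ifng, the defining type 1 cytokine (chr10:118441046-118445892 in GRCm38), was at 0.972, 0.172, 0.425 and 0.567 CPM in the Unstimulated libraries and at 5.19, 11.7, 6.30 and 1.24 CPM in the IL-33 stimulated ones. Every IL-33 stimulated library was above every Unstimulated one, and replicate 4 was much the lowest of the stimulated. The difference was 11.4-fold (log2 fold change 3.51, SE 0.76, edgeR adjusted p = 0.00924) and was also 11.4-fold without replicate 3 (adjusted p = 0.00182). Leaving out 1 library moved the log2 fold change from 2.97 to 4.04, and 1 more besides replicate 3 from 2.60 to 4.00. An annotated transcript of the same strand, Gm49751, covers 25.95% of the exon bases of Ifng. It is not among the genes measured.

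Ifngr1, the ligand-binding chain of the IFNγ receptor (chr10:19591949-19610229), was at 537, 362, 436 and 404 CPM in Unstimulated ILC2s and at 159, 143, 109 and 139 CPM after IL-33. The groups did not overlap. It fell 3.16-fold (log2 fold change -1.66, SE 0.15, edgeR adjusted p = 0.000159), and 2.95-fold without replicate 3. Ifngr2, the signalling chain, was at 51.1 to 58.9 CPM without and 32.3 to 55.9 CPM with IL-33, overlapping groups whose difference did not pass the test (log2 fold change -0.23, SE 0.16, adjusted p = 0.302, and -0.09, SE 0.08, adjusted p = 0.368 without replicate 3). Within each library, the ratio of Ifngr1 to Ifngr2 per length was 11.9, 7.15, 8.89 and 9.19 in Unstimulated and 4.01, 3.14, 3.93 and 2.90 in IL-33 stimulated ILC2s. This ratio, which does not depend on how libraries are scaled, was 2.64-fold lower after IL-33 (exact permutation test, two-sided, p = 0.0286, the smallest this design allows, and 0.0571 after Benjamini-Hochberg adjustment over 4 ratios chosen after the data were seen).

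Of the IL-12 receptor chains, Il12rb2, which recruits STAT4, was at 4.55, 2.23, 3.95 and 3.37 CPM in Unstimulated and at 1.41, 1.56, 2.17 and 1.24 CPM in IL-33 stimulated ILC2s. Its groups did not overlap, although Unstimulated replicate 2 and IL-33 stimulated replicate 3 were close. It fell 2.22-fold (log2 fold change -1.15, SE 0.30, edgeR adjusted p = 0.0208). That call was lost when any 1 of Unstimulated replicates 1, 3 and 4 or IL-33 stimulated replicates 1, 2 and 4 was left out (adjusted p of 0.0579 to 0.0875), and held without IL-33 stimulated replicate 3 (-1.32, SE 0.26, adjusted p = 0.00180). Serbp1, a gene on the opposite strand at 657 to 757 CPM without and 803 to 1068 CPM with IL-33, overlaps 40.04% of the exon bases of Il12rb2, and the library kit does not mark strand. The part of Serbp1 reads in the Il12rb2 counts was not tested. Il12rb1 was at 377, 284, 352 and 377 CPM without IL-33 and at 567, 532, 315 and 394 CPM with it, and replicate 3 was the one stimulated library inside the Unstimulated range. With all libraries it did not pass the test (log2 fold change 0.38, SE 0.19, adjusted p = 0.162), and without replicate 3 it was 1.43-fold higher (0.52, SE 0.13, adjusted p = 0.00736), a call lost with library size alone (0.35, adjusted p = 0.0528) and with limma on TPM (0.20, adjusted p = 0.302). The ratio of Il12rb1 to Il12rb2 per length was 76.6 to 117 in Unstimulated libraries and 135 to 371 after IL-33, 2.79-fold higher (exact permutation test, two-sided, p = 0.0286, adjusted 0.0571).

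Of the IL-18 receptor chains, Il18r1, the binding chain, was at 14.2, 23.6, 22.4 and 22.6 CPM in Unstimulated and at 12.5, 14.5, 7.58 and 10.4 CPM in IL-33 stimulated ILC2s. Unstimulated replicate 1 lay within the stimulated range. It fell 1.84-fold (log2 fold change -0.88, SE 0.24, edgeR adjusted p = 0.0260), a call lost without any 1 of Unstimulated replicates 2, 3 and 4 or IL-33 stimulated replicates 1 and 4 (adjusted p of 0.0511 to 0.0729) and kept without IL-33 stimulated replicate 3 (-0.73, SE 0.18, adjusted p = 0.00661). Il18rap, the accessory chain, was at 208, 201, 184 and 223 CPM and at 214, 206, 143 and 217 CPM in the same order, so that replicate 3 alone was below the Unstimulated range (log2 fold change -0.06, SE 0.14, adjusted p = 0.742, and 0.06, SE 0.07, adjusted p = 0.470 without it). The ratio of Il18rap to Il18r1 per length was 1.75-fold higher after IL-33, with overlapping groups (exact permutation test, two-sided, p = 0.0571, adjusted 0.0762).

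Among the transcription factors, Stat4, which transduces IL-12 signals, was at 76.7, 75.1, 77.2 and 76.5 CPM in Unstimulated and at 76.1, 70.3, 57.7 and 79.5 CPM in IL-33 stimulated ILC2s, and its log2 fold change of -0.11 spanned -0.30 to 0.09 at 2 SE either side (-0.02, SE 0.05, adjusted p = 0.782 without replicate 3). Library size alone and limma on TPM called Stat4 lower in both fits (smallest adjusted p = 0.0210 with all libraries and 0.000921 without replicate 3). Tbx21 was at 1.17 to 1.98 CPM without and at 2.86, 2.43, 4.43 and 0.672 CPM with IL-33, so that 3 stimulated libraries were above the Unstimulated range and replicate 4 below it (log2 fold change 0.67, SE 0.51, adjusted p = 0.340, and 0.29, SE 0.42, adjusted p = 0.574 without replicate 3). Eomes was near the limit of counting, with 7, 32, 8 and 6 counts in Unstimulated and 5, 9, 0 and 2 counts in IL-33 stimulated libraries, and did not enter the test.

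**Figure D2:**
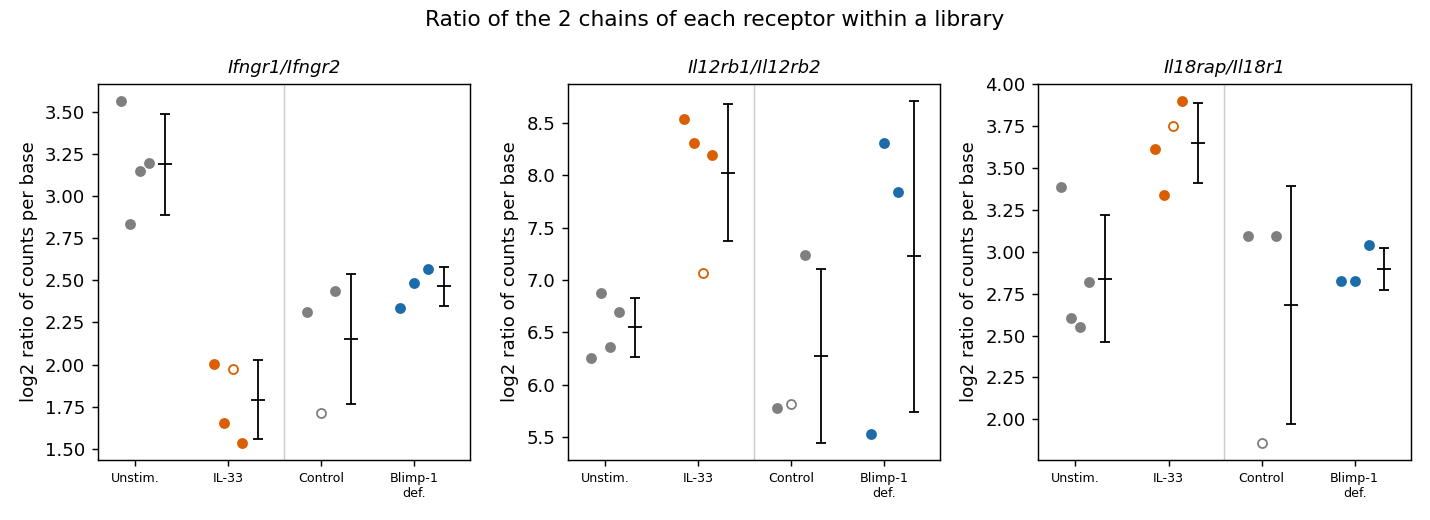
The log2 ratio per length of the 2 chains of the IFNγ, IL-12 and IL-18 receptors in each library of the 4 groups, with mean and SD; open points are IL-33 stimulated replicate 3 and Control replicate 2. Ifngr1/Ifngr2 is lower and Il12rb1/Il12rb2 higher in all 4 IL-33 stimulated libraries than in any Unstimulated one.

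Other genes of the pathway after IL-33 were taken from 6 lists. Of 21 signal transducers and inhibitors of the 3 receptors, 1 rose and 5 fell, where 16.2% of all genes were called higher and 16.1% lower (median log2 fold change -0.17, against 0.06 over all genes). The riser was Jak2, a kinase of the IL-12 and IFNγ receptors (181 to 190 CPM without and 441 to 592 CPM with IL-33, log2 fold change 1.54), and the fallers were Irak4 (-1.20), Irak2 (-0.74), Irak1 (-0.57) and Tab2 (-0.44), which act below the IL-18 and IL-33 receptors, and the p38 kinase gene Mapk14 (-0.71). Of 14 other inducing cytokine and receptor genes tested, of 19 listed, 2 rose, namely Ebi3, a subunit of IL-27 (2.81), and the common cytokine receptor chain Il2rg (0.40), and 3 fell, namely Il6st, the receptor chain gp130 (-1.17), Il21r (-1.08) and the IL-33 receptor Il1rl1 (-0.87). Of 13 other type 1 transcription regulators tested, of 15 listed, 3 rose, namely Zeb2 (3.49), Bhlhe40 (0.96) and Hopx (0.94), and 3 fell, namely Ikzf3 (-1.11), Runx1 (-0.77) and Id2 (-0.37). All of these values are log2 fold changes with an edgeR adjusted p below 0.05. The call of Id2 was lost in 6 of 17 alternatives (adjusted p up to 0.146), among them without Unstimulated replicate 3 or IL-33 stimulated replicate 1, 2 or 4, that of Il2rg in 5 (log2 fold change down to 0.072 under limma, adjusted p up to 0.681) and that of Hopx in 3 (adjusted p up to 0.0739).

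IFNγ response genes rose in 7 of 24 tested and fell in 0 (edgeR, with 10 rising and 0 falling at an unadjusted p below 0.05, and 10 and 0 by DESeq2), with a median log2 fold change of 0.53. Cxcl9, another chemokine gene of this list, held 0 to 4 counts per Unstimulated library and 21 to 105 with IL-33. Cxcl10, which encodes a chemokine that attracts type 1 lymphocytes, was at 0.687 to 1.80 CPM without and at 47.7, 65.1, 45.7 and 18.0 CPM with IL-33 (log2 fold change 5.02, SE 0.48, adjusted p = 0.000191). Iigp1, an immunity-related GTPase, was at 3.78 to 22.2 CPM without and at 178, 129, 170 and 10.9 CPM with IL-33 (3.52, SE 0.88, adjusted p = 0.0168). In both genes, as in Ifng and Tbx21, replicate 4 was the lowest stimulated library, and for Iigp1 it lay within the Unstimulated range. The Iigp1 call was lost in 4 of 17 alternatives, among them without Unstimulated replicate 3 or 4. Type 1 effector genes rose in 5 and fell in 5 of 16 tested, with Csf2 (5.88), Ifng and Tnf (2.89) the largest rises and Nkg7 (-1.68), Ltb (-1.50) and Cxcr3 (-1.48) the largest falls among genes of at least 1 CPM. The call of Cxcr3 was lost in 9 of 16 alternatives (adjusted p up to 0.153), including each that left out 1 library other than IL-33 stimulated replicate 3. Type 2 counterparts rose in 6 and fell in 3 of 13, with Il13 at 6.68 and Il5 at 4.98, Il9 going from 2, 0, 0 and 0 counts to 3435 to 5313 CPM and, among the falls, Il17rb at -3.07, Il1rl1 at -0.87 and Gata3 at -0.69. Marker sums moved with these changes, as the 12 ILC2 markers summed to 7944 to 8573 CPM without and 5355 to 7424 CPM with IL-33, and the 13 T cell markers to 413 to 434 and 235 to 277 CPM (7 of 13 lower, 0 higher by edgeR, with 8 lower and 0 higher at an unadjusted p below 0.05 and by DESeq2). Of the T cell markers, Bcl11b alone averaged 227 CPM without and 162 CPM with IL-33. Cd3d, Cd3e and Cd3g averaged 2.79, 6.83 and 35.7 CPM without and 1.17, 3.76 and 12.2 CPM with it. The part of the marker sums in the results was not tested. Without IL-33 stimulated replicate 3, where 27.5% of all genes were called higher and 29.7% lower and their median was -0.05, 2 signal transducers and inhibitors were higher and 8 lower (median -0.10), 3 other inducing genes were higher and 5 lower (-0.06), and 5 regulators were higher and 4 lower (0.38). In the same fit 9 IFNγ response genes were higher and 0 lower (0.62, edgeR, with 10 and 0 at an unadjusted p below 0.05, and 7 and 0 by DESeq2), 5 effector genes were higher and 5 lower (0.13), and 8 type 2 counterparts were higher and 3 lower (0.38).

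The loss of Blimp-1 was examined next. With all 6 libraries, Eomes was the only member called, and it was lower, against 0.45% of 17335 genes called higher and 0.306% called lower. At an unadjusted p below 0.05, 4 members were higher and 1 was lower, and DESeq2 called 3 higher (Stat4, Ifngr1 and Ifngr2) and 1 lower. Without Control replicate 2, 6 of the 10 members were higher, namely Ifng, Stat4, Il18r1, Il18rap, Ifngr1 and Ifngr2, and Eomes was lower, against 8.25% higher and 5.72% lower among 17968 genes. Il12rb1, Il12rb2 and Tbx21 did not pass the edgeR test in either fit, while DESeq2 called Il12rb1 higher without Control replicate 2.

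Stat4 (chr1:51987148-52107189) was at 38.5, 16.6 and 41.9 CPM in Control and at 73.0, 69.4 and 79.6 CPM in Blimp-1-deficient ILC2s. All 3 Blimp-1-deficient libraries were above all Controls, of which replicate 2 held 68 counts. Without that library Stat4 was 1.86-fold higher (log2 fold change 0.89, SE 0.08, edgeR adjusted p = 0.00137), and it stayed called when each of the 5 remaining libraries was left out (0.84 to 0.94). With all libraries the log2 fold change was 1.15 (SE 0.31, adjusted p = 0.200). A transcript on the same strand, Gm28177, shares 26.68% of the exon bases of Stat4 and held 0 to 9 counts in these libraries.

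Both chains of the IFNγ receptor were higher without Control replicate 2. Ifngr2 was at 27.5, 24.1 and 27.4 CPM in Control and at 37.5, 40.0 and 40.6 CPM in Blimp-1-deficient ILC2s, without overlap. Without Control replicate 2 it was 1.44-fold higher (log2 fold change 0.53, SE 0.06, edgeR adjusted p = 0.00328), and with all libraries 1.49-fold (0.57, SE 0.09, adjusted p = 0.0572). Ifngr1 was at 117, 68.0 and 128 CPM in Control and at 163, 193 and 207 CPM in Blimp-1-deficient ILC2s. It was 1.54-fold higher without Control replicate 2 (0.62, SE 0.10, adjusted p = 0.00950), a call lost when Control replicate 1 was left out as well (adjusted p = 0.0721), and 1.79-fold with all libraries (0.84, SE 0.24, adjusted p = 0.228). The ratio of the chains was 4.97, 3.28 and 5.41 in Control and 5.06, 5.61 and 5.92 in Blimp-1-deficient libraries, and these overlapped (exact permutation test, two-sided, p = 0.200, where 3 against 3 cannot go below 0.1).

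The IL-18 receptor chains differed by less. Il18r1 was at 14.5, 21.9 and 14.9 CPM in Control and at 20.6, 20.6 and 19.5 CPM in Blimp-1-deficient ILC2s, so that Control replicate 2, with 90 counts, lay above all the others. Without it Il18r1 was 1.38-fold higher (log2 fold change 0.47, SE 0.07, edgeR adjusted p = 0.00772), and with it 1.21-fold (0.27, SE 0.17, adjusted p = 0.630). Il18rap was at 174, 112 and 178 CPM in Control and at 204, 205 and 225 CPM in Blimp-1-deficient ILC2s. It was 1.21-fold higher without Control replicate 2 (0.27, SE 0.06, adjusted p = 0.0342), and the call was lost when Control replicate 1 or 3 or Blimp-1-deficient replicate 2 or 3 was left out (adjusted p of 0.0658 to 0.162). With all libraries its log2 fold change was 0.45 (SE 0.19, adjusted p = 0.425).

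The IL-12 receptor chains were not called by edgeR. Il12rb1 was at 246, 178 and 250 CPM in Control and at 314, 270 and 290 CPM in Blimp-1-deficient ILC2s, and although these did not overlap it missed the threshold both without Control replicate 2 (log2 fold change 0.24, SE 0.08, edgeR adjusted p = 0.0848) and with all libraries (0.37, adjusted p = 0.425). It did pass without Control replicate 2 under DESeq2 (adjusted p = 0.0333) and in edgeR with no filter on low counts. Il12rb2 was at 4.14, 2.92 and 1.53 CPM in Control and at 6.27, 0.787 and 1.17 CPM in Blimp-1-deficient ILC2s. Replicate 1 was thus the highest of the 6 and the other Blimp-1-deficient libraries were the lowest. Its log2 fold change was -0.03 without Control replicate 2 (-1.75 to 1.69 at 2 SE either side), and in that fit it turned to 0.34, 0.41 and 0.86 when Blimp-1-deficient replicate 3, Blimp-1-deficient replicate 2 or Control replicate 1 was left out, respectively. With all libraries it was -0.06 (SE 0.84). In Tbx21 replicate 1 was again the highest, at 1.15, 0.974 and 0.602 CPM in Control and at 1.91, 0.916 and 0.559 CPM in Blimp-1-deficient ILC2s (0.33, SE 0.54, edgeR adjusted p = 0.874 with all libraries, and 0.38, SE 0.54, adjusted p = 0.674 without Control replicate 2). The difference turned to -0.28 and -0.23 in these fits without Blimp-1-deficient replicate 1, and in the second also without Control replicate 3. Blimp-1-deficient replicate 1 also had the highest sum of its group over the 14 ILC1 and NK cell markers (63.8 CPM against 55.8 and 57.4). In Control, where replicate 1 was likewise highest in Tbx21 and Il12rb2, it was not highest in this sum (43.9, 34.8 and 47.4 CPM in replicates 1 to 3). Whether cells of another type contribute to these values was not tested.

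Ifng was at 0.374, 0 and 0.137 CPM in Control, with 31, 0 and 13 counts, and at 1.12, 1.19 and 0.755 CPM in Blimp-1-deficient ILC2s, with 93, 92 and 73 counts. The groups did not overlap, though the 0 in Control replicate 2 allows up to 0.731 CPM. Ifng was 4.04-fold higher without that library (log2 fold change 2.01, SE 0.46, edgeR adjusted p = 0.0310) and 4.55-fold with it (2.19, SE 0.64, adjusted p = 0.238). The call was lost without Control replicate 3 or Blimp-1-deficient replicate 1 or 2 (adjusted p of 0.0699 to 0.0819). With 1 more library left out the log2 fold change ran from 1.44 to 2.89, and from 1.84 to 3.11 with 1 of all 6 left out.

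Eomes (chr9:118478212-118486132), the T-box factor of NK cells and of memory T cells, moved the other way. It was at 2.25, 2.19 and 2.39 CPM in Control and at 0.520, 0.310 and 0.259 CPM in Blimp-1-deficient ILC2s, with 187, 9 and 226 counts against 43, 24 and 25. Every Blimp-1-deficient library was below every Control. Eomes was 6.29-fold lower with all libraries (log2 fold change -2.65, SE 0.36, edgeR adjusted p = 0.0398) and 6.36-fold lower without Control replicate 2 (-2.67, SE 0.31, adjusted p = 0.00327). With all libraries the call was lost when any library other than Control replicate 2 was left out (adjusted p up to 0.254) or when libraries were scaled by size alone (-2.20, adjusted p = 0.0751). Without Control replicate 2 it held in all 5 fits that left out another library. Genes of ILC1s and NK cells went both ways. Of the 12 tested, of 15 listed, Klrd1 (-1.96) and Klra7 (-2.77) were lower and Txk (1.56) was higher without Control replicate 2 (edgeR). At an unadjusted p below 0.05, 3 were higher and 6 lower, and by DESeq2 3 and 4. Among all genes in that fit, 8.25% were called higher and 5.72% lower. The median of the 12 was -0.85 there and 4 were above 0. With all libraries 1 of the 12 was higher and 0 lower by edgeR, against 0.45% and 0.306% of all genes. The list summed to 34.8 to 47.4 CPM in Control and to 55.8 to 63.8 CPM in Blimp-1-deficient libraries, and Klrb1c was at 0 to 0.350 and 0.116 to 0.217 CPM. The part of such cells in the Eomes difference was not tested.

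**Figure D3:**
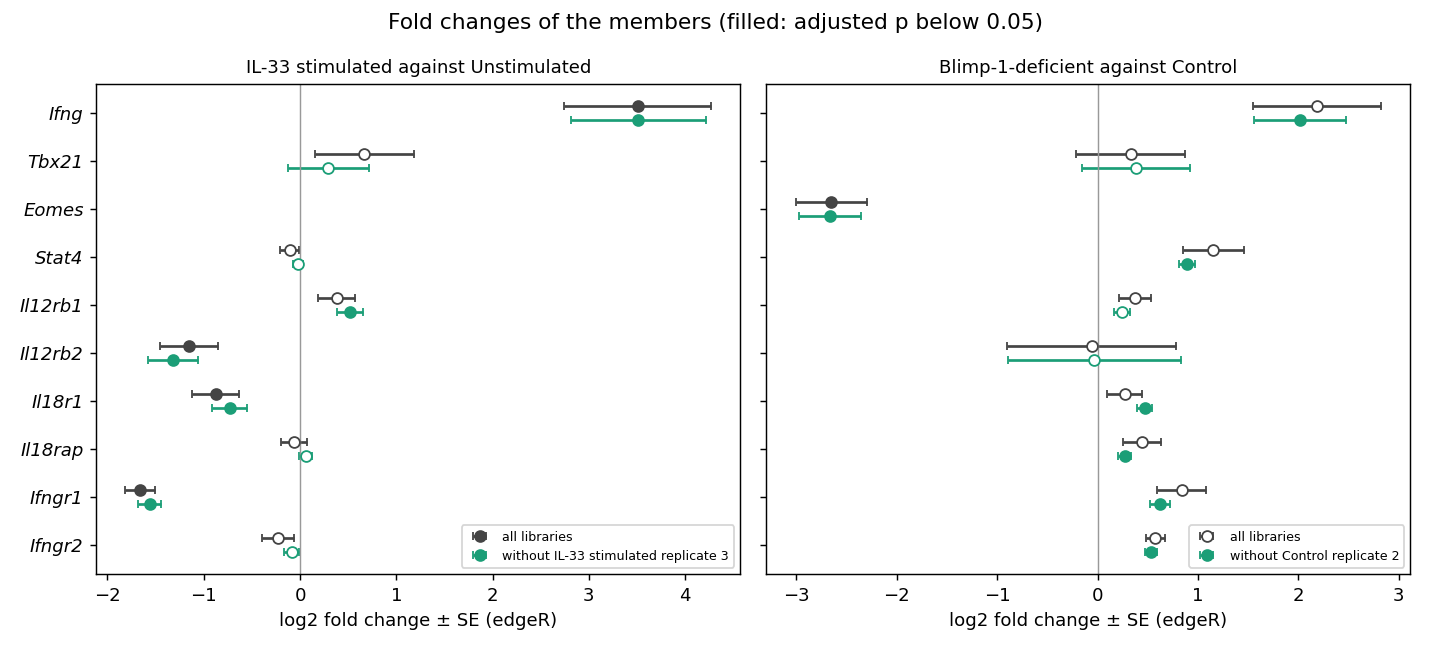
Log2 fold changes with standard errors (edgeR) of the members for IL-33 stimulated against Unstimulated and for Blimp-1-deficient against Control, with all libraries (dark grey) and without 1 library (green); filled points have an adjusted p below 0.05, and Eomes was not tested after IL-33. In the Blimp-1 comparison the standard errors are smaller without Control replicate 2 for each member but Il12rb2, and Ifng is at 2.19 with it and 2.01 without it.

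The downstream side of the program was described by the same 6 lists, which were chosen with earlier results of these data known. Of 25 IFNγ response genes, 25 had a log2 fold change above 0 in both fits, where 47.7% of all genes tested did with all libraries and 51.8% without Control replicate 2. With all libraries 0 were called (edgeR, with 19 higher at an unadjusted p below 0.05, and 13 higher by DESeq2), and without Control replicate 2 16 were higher and 0 lower (24 higher and 0 lower at an unadjusted p below 0.05, and 20 and 0 by DESeq2), with medians of 0.76 and 0.58. Cxcl10 was at 7.95, 0.487 and 3.73 CPM in Control and at 32.4, 21.0 and 37.1 CPM in Blimp-1-deficient ILC2s (log2 fold change 2.38 without Control replicate 2, SE 0.36, adjusted p = 0.00791). Gbp2, a guanylate-binding protein, was at 19.1, 16.8 and 12.9 CPM and at 91.6, 48.9 and 48.8 CPM (1.99, SE 0.33, adjusted p = 0.0103). Iigp1 was at 3.69, 3.65 and 2.17 CPM and at 22.04, 9.12 and 11.7 CPM (2.30, SE 0.43, adjusted p = 0.0155). In these 3 genes every Blimp-1-deficient library was above every Control. The call of Iigp1 was lost without Control replicate 1 or 3 and that of Gbp2 without Control replicate 3.

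Between receptor and response, 5 of 21 signal transducers and inhibitors were higher and 3 lower without Control replicate 2 (median 0.09), where 8.25% of all genes were called higher and 5.72% lower, and 0 were called with all libraries (edgeR, with 5 higher and 1 lower at an unadjusted p below 0.05, and 1 and 1 by DESeq2). Among those higher were the inhibitors Il18bp (1.03), which binds IL-18, and Socs1 (0.58), which restrains JAK signalling. The 3 lower ones were Socs3 (-0.84), Mapk14 (-0.28) and the phosphatase gene Ptpn2 (-0.27). The call of Ptpn2 was lost in 9 of 13 alternatives (adjusted p up to 0.224), including each that left out 1 more library. Those of Mapk14, Il18bp and Socs1 were lost in 5 each (adjusted p up to 0.140, 0.169 and 0.143), all 3 without Control replicate 1 or Blimp-1-deficient replicate 3, and also without Control replicate 3 (Mapk14, Il18bp), Blimp-1-deficient replicate 1 (Mapk14, Socs1) or 2 (Socs1). Of 15 other inducing cytokine and receptor genes tested, 7 were higher and 1 lower without Control replicate 2, and 0 were called with all libraries (edgeR, with 7 higher and 1 lower at an unadjusted p below 0.05, and 4 and 0 by DESeq2). Those higher were led by Il23r (2.82), Il1r1 (1.08) and Ebi3 (0.78), with Il1rl1, the IL-33 receptor, lower (-0.42). Il23r and Il1r1 are also among the ILC3 markers, of which 3 of 8 tested were higher and 0 lower without Control replicate 2. In that fit 7 were higher and 0 lower at an unadjusted p below 0.05 and by DESeq2. With all libraries 1 was higher by edgeR and 3 by DESeq2. The 9 listed summed to 59.4 to 80.4 CPM in Control and 88.9 to 93.3 CPM in Blimp-1-deficient libraries. The 80.4 CPM was Control replicate 2, with 6 of the 9 at 3 counts or fewer. Ahr alone averaged 49.1 CPM in Control without that library and 60.0 CPM in Blimp-1-deficient libraries. Of 14 other type 1 transcription regulators tested, 0 were called with all libraries (edgeR, with 2 higher and 2 lower at an unadjusted p below 0.05, and 1 and 1 by DESeq2). Without Control replicate 2 there were 3 higher (Twist1 1.73, Bhlhe40 0.52, Runx1 0.39) and 2 lower (Hopx -0.89, Id2 -0.33). The call of Id2 was lost in 9 of 13 alternatives (adjusted p up to 0.215), including each that left out 1 more library. That of Twist1 was lost in 4 (Control replicate 1 and Blimp-1-deficient replicates 1 and 3 among the libraries left out), of Hopx in 3 (Control replicates 1 and 3), of Runx1 in 2 (Control replicate 1) and of Bhlhe40 in 1 (Control replicate 3). Type 1 effector genes were higher in 2 of 18 with all libraries, namely Tnf (log2 fold change 2.17, SE 0.12, adjusted p = 0.00441) and Ltb (1.82, SE 0.15, adjusted p = 0.0122), and higher in 8 and lower in 4 without Control replicate 2. With all libraries the Tnf call was lost in 8 of 15 alternatives, among them without any 1 of the Blimp-1-deficient libraries, and the Ltb call in 10 of 15, among them without any 1 library other than Control replicate 2 (adjusted p up to 0.599 for each). Of 13 type 2 counterparts, 3 were higher and 3 lower without Control replicate 2, namely Il9 (1.33), Stat6 (0.38) and Rora (0.36) against Pparg (-0.73), Il4ra (-0.54) and Il1rl1. The calls of Rora and Il1rl1 were lost in 4 of 13 alternatives each, both without Control replicate 1 or 3, Rora also without Blimp-1-deficient replicate 3 and Il1rl1 without replicate 2. With all libraries 0 of these were called (edgeR, with 3 higher and 2 lower at an unadjusted p below 0.05, and by DESeq2). The 12 ILC2 markers summed to 5567 to 6689 CPM in Control and to 4745 to 5158 CPM in Blimp-1-deficient libraries, and the part of this in the results was not tested.

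**Figure D4:**
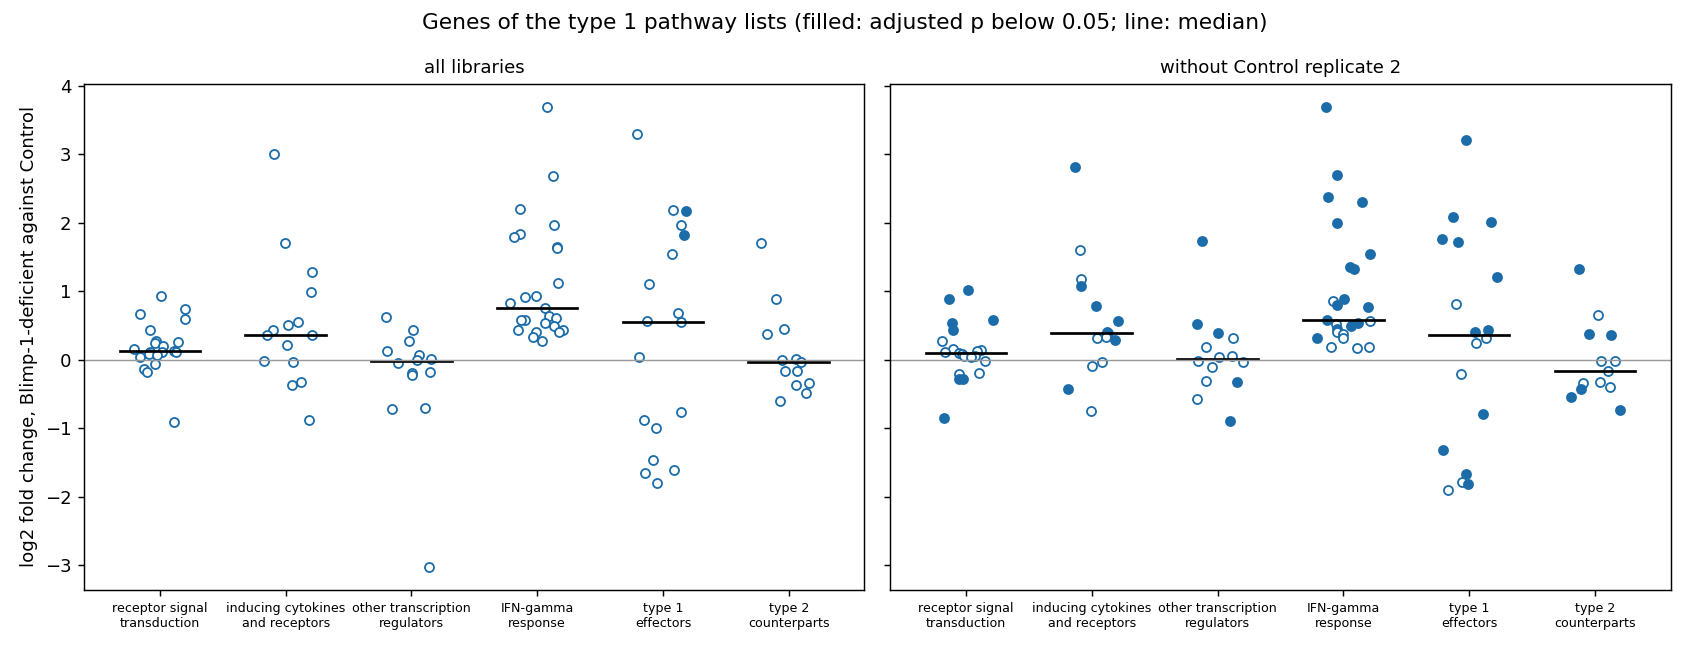
Log2 fold changes of Blimp-1-deficient against Control for each tested gene of the 6 lists, with all libraries and without Control replicate 2; filled points have an adjusted p below 0.05 and lines are medians. All 25 IFNγ response genes lie above 0 in both panels, while the medians are -0.02 and 0.01 for the transcription regulators and -0.03 and -0.17 for the type 2 counterparts with all libraries and without Control replicate 2.

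Levels across libraries were compared as a description, over the 12 libraries of both experiments without IL-33 stimulated replicate 3 and Control replicate 2, on log2(CPM + 0.5), among 10405 genes with a mean of at least 5 CPM. The libraries share their group and experiment, so these values are not independent. The genes most like Ifng were Iigp1 (Pearson r = 0.937), Cd274 (0.934), the member Il12rb1 (0.921), Gbp5 (0.916) and Serpina3g (0.913). Those most like Tbx21 were Casp1 (0.884), Top3a (0.859), Parp11 (0.780), Casp4 (0.770) and Gbp4 (0.752), and those most like Il18r1 were Ajuba (0.939), Sgsm2 (0.930), Haghl (0.926), Afdn (0.925) and Arhgef5 (0.925).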

How the data were processed

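RNA-seq of sorted lung ILC2s was examined in 14 libraries, each numbered by mouse in the labels. Libraries were made with the SMART-seq v4 and Nextera XT kits, which do not mark strand. Per the study's methods, the authors trimmed reads (cutadapt), mapped them to GRCm38 (HISAT2) and obtained gene-level counts with Subread, whether by strand is not given in the sources used here. The submitters' processing notes list Bowtie2 and DESeq2 too. The authors deposited raw counts and TPM, in a separate table for each experiment.

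The deposited counts were tested in edgeR 4.0.16 (R 4.3.3) with TMM, filterByExpr and the two-sided quasi-likelihood test, adjusted by Benjamini-Hochberg over all genes tested, at a threshold of 0.05. CPM came from the same counts and TMM library sizes. Levels of different genes were compared as TPM. The 2 experiments were fitted apart. Alternatives were DESeq2 1.42.0, limma 3.58.1 on log2(TPM + 1), other scalings and filters, a replicate block, and fits lacking 1 library. The scripts were checked on simulated counts.

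The members and lists were chosen with earlier results of these data known. Genes named were the members, Prdm1 and, per list, all genes past the threshold with all libraries if 6 or fewer, otherwise the 3 largest rises and falls of at least 1 CPM, or the same without the library that stands apart where none passed. Names of cell type markers and other exceptions were picked after their values were seen. Gene coordinates and overlaps come from the GENCODE annotation of GRCm38. Floors of 3 counts cover counting error only. Some items are not reported here.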

Additional observations from a re-analysis of the deposited data

Results flagged for a closer look

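In a group of 4 libraries, 2 members had a library far from the other 3. Il18r1 was at 14.2 CPM in Unstimulated replicate 1, below the 22.4 to 23.6 CPM of the other Unstimulated libraries. Il18rap was at 143 CPM in IL-33 stimulated replicate 3, the shallowest library, below the 206 to 217 CPM of its group. Chance gives such a gap in about 1 in 20 groups. As the members were searched in both groups of 4 libraries, gaps like these can arise by chance. Groups of 3 were not examined in this way.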

How the results depend on the processing

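With all libraries, limma on log2(TPM + 1), log2(TPM + 0.1) and log2(TPM + 1) with no filter called 1032, 1027 and 930 genes higher and 4655, 4546 and 4198 lower after IL-33, and the first 2 called 5 members lower. No filter on low counts left 1 member lower. Without IL-33 stimulated replicate 3 these limma fits called 2202, 2185 and 2266 genes higher, 1 member higher and 6 lower, and library size alone 1 and 5. For Blimp-1 loss with all libraries, DESeq2 called 546 genes higher and 536 lower with 3 members higher, a mean count of at least 50 gave 149 and 107 with 1 member higher, library size alone 1 member higher and 0 lower, and the limma fits 1, 1 and 0 genes higher, 1, 0 and 0 lower and 0 members lower. Without Control replicate 2, no filter gave 2331 genes higher, DESeq2 1632 lower, and the limma fits 575, 568 and 190 lower, the last with 308 genes and 3 members higher. The cause was not tested.

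Leaving out 1 library gave 1852 to 4328 genes higher, 1820 to 4666 lower, 1 to 2 members higher and 1 to 3 lower after IL-33, and 0 to 1483 genes higher, 0 to 1027 lower, 0 to 6 members higher and 0 to 1 lower after Blimp-1 loss; without Control replicate 2, leaving out another gave 609 to 1117 genes higher and 343 to 674 lower. The largest counts came without IL-33 stimulated replicate 3 and Control replicate 2. Of calls after IL-33, 50.2% were higher, against 32.8% with library size alone and 18.1% with limma, and the median of all genes moved from 0.06 to -0.25 under limma. For Blimp-1 loss limma moved it from -0.02 to 1.28.

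Without IL-33 stimulated replicate 3, library size alone and limma called Stat4 and Ifngr2 lower (smallest adjusted p = 0.000921 and 0.00250), which were not called with TMM. With 1 library left out, Il18rap after IL-33 ran from -0.12 to 0.059, turning without Unstimulated replicate 4 (0.014) or IL-33 stimulated replicate 3. Without the latter, Il18rap turned to -0.12 with library size alone and -0.24 in the limma fits (called, limma, smallest adjusted p = 0.0167), Tbx21 to -0.082, -0.20 and -0.082 in the limma fits, and Stat4 to 0.012 with RLE and 0.015 with DESeq2; leaving out another library moved Tbx21 from -0.052 to 0.71 and Stat4 from -0.054 to 0.033. For Blimp-1 loss with 1 library left out, Tbx21 ran from -0.28 to 0.66 and Il12rb2 from -1.54 to 0.41, both lowest without Blimp-1-deficient replicate 1. Il12rb2 turned to 0.45 with library size alone and to 0.39, 0.91 and 0.39 in the limma fits. Without Control replicate 2 it turned to 0.063 with library size alone, and leaving out another library moved Tbx21 from -0.23 to 0.92 and Il12rb2 from -1.51 to 0.86. The log2 ratio of Il18rap to Il18r1 turned from 0.21 to -0.20 without Control replicate 2.

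The design text gives separate mice for the groups, and the correlations of same-numbered libraries were -0.12 to 0.31 for IL-33 and -0.16 to 0.14 for Blimp-1. With the replicate block, 0 members were higher and 1 lower after IL-33 (Ifng 3.26, adjusted p = 0.0522, edgeR, with the calls of Il12rb2 and Il18r1 lost as well), and 0 genes higher, 0 lower and 0 members lower after Blimp-1 loss.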
